A study of Mus musculus with 10 samples.

Results

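The mitosis and chromosome segregation genes described here are 55 genes whose products drive cells into mitosis, build the spindle, hold chromosomes to it and divide the cell. They were chosen by gene symbol, and all 55 had a row among the 22329 genes of the deposited table. The samples were 10 tumours of B16F10, an established mouse melanoma cell line, grown under the skin of C57BL6/J mice and injected once with 80 µg of mRNA. In 5 control tumours (libraries 1 to 5) the mRNA encoded luciferase. In 5 cytokine tumours (libraries 6 to 10) it was a mixture of 4 mRNAs, 20 µg each, for murine GM-CSF, IFNalpha, IL-15sushi (the cytokine joined to part of its receptor) and single chain IL-12. Tissue was taken 7 days after injection. A transplanted line in 1 mouse strain stands for melanoma here, and each library comes from bulk tumour tissue with all the cells in it, so fewer dividing cells and less mitotic RNA per cell cannot be told apart. The library titles repeat 1 tumour label within a group, while the design text gives 5 animals per group, so p-values measure the spread between these libraries. The question set by the design was which genes differed between the 2 groups. Values are TPM, which counts transcripts of a gene relative to all transcripts after correction for transcript length, so levels can be compared between genes; the sequencing depth is unknown.

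Mitotic genes are made in a burst. In cells that divide, most of them are off in G1, rise after DNA replication and peak in G2 and M, when Cdk1 with cyclin B starts mitosis; the spindle assembly checkpoint then holds the anaphase-promoting complex until every chromosome is attached. Many of their promoters are repressed outside that window by the DREAM complex and activated in it by B-Myb and FoxM1. In a tumour their RNA is widely read as a measure of proliferation, of tumour cells and of any dividing immune cells alike. The DREAM complex is known to act through a short element, the cell cycle genes homology region (TTTGAA, or TTTAAA in some genes), which often lies next to CCAAT boxes bound by NF-Y.

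Some libraries stood apart from the others of their group, which bears on every result here. Library 10, a cytokine tumour, had T cell and macrophage list means of 2.24 and 5.30 on the log2(TPM + 1) scale, against 3.95 to 6.74 and 7.20 to 8.75 in libraries 6 to 9 and at most 1.88 and 4.94 in the controls. Libraries 7 and 6 had ribosomal protein genes scattered by 2.14 and 1.6 (SD, log2) around the control mean, against 0.56 and 0.73 in libraries 9 and 8 and 0.30 to 0.43 in controls. Of 14 melanocyte lineage genes, the markers of the injected cells, 3 were listed at 0 in library 7, whose list mean was 1.64 against 7.16 to 8.97 in the other cytokine tumours and 6.23 to 9.04 in the controls. The parts of these differences in the results below were not tested, and results are given with and without these libraries.

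Mitotic genes were lower in the cytokine tumours. All 55 passed the filter on low values (5 or more libraries with a TPM of 1 or higher), and 54 reached that level in all 10, Kif11 being the exception. In a limma comparison of log2(TPM + 1) over the 12497 genes tested, 40 of the 55 fell at a Benjamini-Hochberg adjusted p under 0.05 and none rose, where 3.02% of all genes tested were lower and 7.41% higher by the same rule. No gene of the 55 was higher at an unadjusted p under 0.05 either, and 52 were lower. Of all 12497 genes tested, 3813 were at an unadjusted p under 0.05 by limma, in either direction. The log2 change was below 0 for all 55, against 60.3% of genes tested, and below -1 for 48, against 11.1%. Its median was -1.44, from -2.51 in Cks2 to -0.43 in Pttg1, beside a median of -0.18 over all genes tested. The groups did not overlap in 15 of the 55 genes, against 3.78% of genes tested. Hereafter an error after a TPM mean is the SD (n = 5 tumours per group), and an error after a log2 change is the SE from limma.

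**Figure D1:**
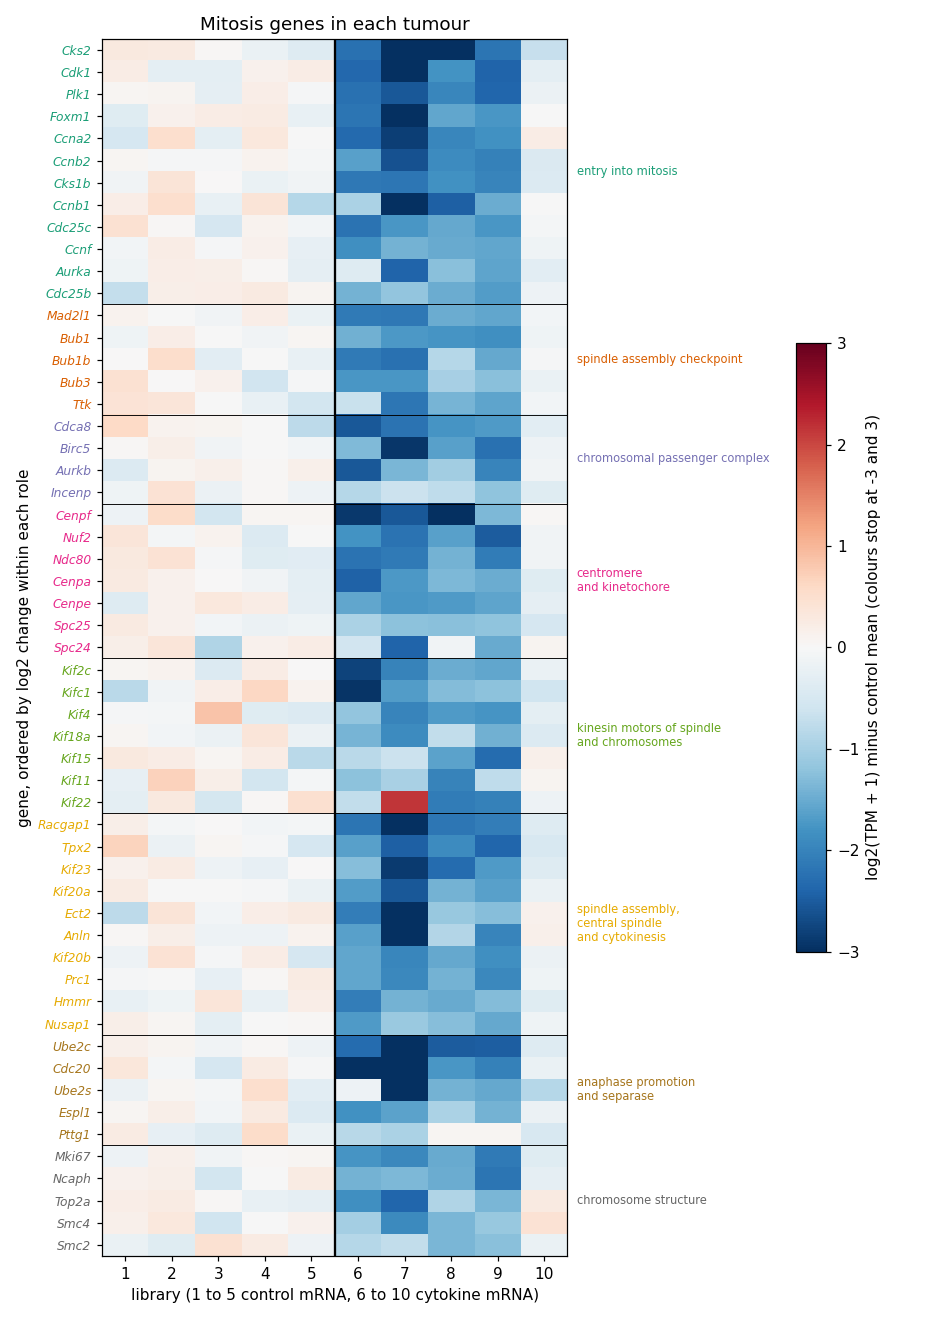
Log2(TPM + 1) of each of the 55 mitosis genes (rows, grouped by role) in each of the 10 libraries (columns), as the difference from the mean of the 5 control libraries; blue is lower and red higher. Libraries 6 to 9 are blue in nearly every row, with Kif22 in library 7 the 1 strong exception. Library 10 lies close to the controls, below all 5 of them in 17 of the 55 genes.

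The fall was shared by 4 of the 5 cytokine tumours. Libraries 6, 7, 8 and 9 lay below all 5 controls in 53, 53, 53 and 54 of the 55 genes, against 40.5%, 48.7%, 27.9% and 25.3% of all genes tested. Library 10 did so in 17 genes (11.9% of all genes tested), lay within the control range in 36 and above it in 2. In 50 of the 55 genes libraries 6 to 9 were all below every control, against 13.4% of genes tested. The median difference of the 55 genes from the control mean was -1.71, -2.12, -1.50 and -1.67 on the log2 scale in libraries 6 to 9 and -0.18 in library 10, against -0.09 to 0.13 in the controls. Together the 55 genes took 0.36% to 0.425% of all TPM in control tumours, 0.104% to 0.137% in libraries 6 to 9 and 0.355% in library 10. They also moved less evenly there: the SD of the difference over the 55 genes was 0.22 to 0.31 in controls, 0.24 in library 10 and 0.46 to 0.98 in libraries 6 to 9, with the widest scatter in library 7.

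How many genes passed the test rested on single libraries, while the direction did not. Of the 55, the count that fell was 20, 10, 16, 13 and 13 without control libraries 1 to 5 in turn, and 1, 21, 7, 10 and 52 without cytokine libraries 6 to 10. Of all genes tested, 1.15%, 0.629%, 0.837%, 0.694% and 0.765% were lower without the controls in turn, and 0.114%, 1.61%, 0.58%, 0.896% and 12.8% without the cytokine libraries. The 1 gene left without library 6 was Spc25, at a limma adjusted p = 0.04996, just under the threshold. Without libraries 6 and 7 together none passed, and of all 12071 genes tested in that fit 0 were lower by the same rule. Of the 55, 49 were lower at an unadjusted p under 0.05 by limma. The share of all genes tested under that p in this fit is not given here. The median change of the 55 was -1.11, and all 55 log2 changes stayed below 0.

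The RefSeq promoter windows of these genes held that element often, which the choice by symbol did not use. Windows ran from 250 bases before to 50 bases after the annotated start (build GRCm38.p6), both strands were searched, and 49 windows matched 46 of the 55 genes. TTTGAA was in 73.5% of these windows, against 17.9% of all promoters of the same length and 12.1% of those of the genes tested. Counting matches from 50 bases before the start onwards, the shares were 67.3%, 4.94% and 3.08%. TTTAAA, a palindrome, was in 18.4%, against 13.2% and 9.22%. CCAAT was in 73.5%, against 37.4% and 37.5%, and either form of the element together with CCAAT was in 67.3%, against 10.7% and 7.66%. The E2F-type words TTTGGCGC or TTTCCCGC, searched as well, were in 4.08%, against 1.56% and 2.83%. The median log2 change was -1.47 in the 33 genes with TTTGAA and -1.38 in the 13 without, a difference that was not tested. These are matches of letters, not measured binding sites.

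Shown here are 230 bases, 200 before the start and the first 30 transcribed, for the 5 genes with the largest falls that had a window and for Pttg1, the gene of smallest change. Capitals mark TTTGAA and CCAAT on either strand (TTCAAA and ATTGG when read on the other); overlapping matches run together.
Cks2, chr13:51645032-51645261, plus strand: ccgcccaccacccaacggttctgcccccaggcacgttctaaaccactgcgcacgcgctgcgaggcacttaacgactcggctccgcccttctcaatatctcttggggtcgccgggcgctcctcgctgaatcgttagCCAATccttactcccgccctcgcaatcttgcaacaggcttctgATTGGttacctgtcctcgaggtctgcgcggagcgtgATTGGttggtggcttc
Ube2c, chr2:164769729-164769958, plus strand: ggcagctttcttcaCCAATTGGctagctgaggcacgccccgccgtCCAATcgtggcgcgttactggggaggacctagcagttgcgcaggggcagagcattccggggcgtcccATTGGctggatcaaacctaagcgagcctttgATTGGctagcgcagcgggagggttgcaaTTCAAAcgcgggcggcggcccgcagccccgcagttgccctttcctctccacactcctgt
Cdc20, chr4:118437314-118437543, minus strand: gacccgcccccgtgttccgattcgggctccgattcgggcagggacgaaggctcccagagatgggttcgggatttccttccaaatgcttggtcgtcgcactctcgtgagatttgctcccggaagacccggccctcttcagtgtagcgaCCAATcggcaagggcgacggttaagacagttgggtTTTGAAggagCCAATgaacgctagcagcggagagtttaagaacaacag
Cdk1, chr10:69352883-69353112, minus strand: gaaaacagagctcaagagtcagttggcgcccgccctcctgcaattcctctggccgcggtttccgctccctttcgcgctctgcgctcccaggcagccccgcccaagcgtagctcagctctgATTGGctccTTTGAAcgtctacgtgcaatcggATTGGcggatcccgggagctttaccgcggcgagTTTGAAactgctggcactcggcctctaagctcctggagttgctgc
Racgap1, chr15:99651627-99651856, minus strand: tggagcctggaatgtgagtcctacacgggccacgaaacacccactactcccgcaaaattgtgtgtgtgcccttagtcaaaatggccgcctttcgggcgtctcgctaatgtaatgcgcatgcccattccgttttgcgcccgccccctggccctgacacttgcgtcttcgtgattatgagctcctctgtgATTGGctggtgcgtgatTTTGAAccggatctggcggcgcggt
Pttg1, chr11:43425952-43426181, minus strand: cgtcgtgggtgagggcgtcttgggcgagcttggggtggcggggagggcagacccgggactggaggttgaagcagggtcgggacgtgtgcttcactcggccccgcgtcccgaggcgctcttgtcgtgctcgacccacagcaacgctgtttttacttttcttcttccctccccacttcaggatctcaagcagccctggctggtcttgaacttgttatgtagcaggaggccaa
Cdk1, Cdc20 and Ube2c held TTTGAA upstream of the start, and Racgap1 held it just after the start. The Cks2 window held CCAAT but neither form of the element, and the Pttg1 window held none of these words.

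Among the 12 genes of entry into mitosis, 10 fell and 2 did not pass, with a median log2 change of -1.71; without library 10 all 12 fell, and without library 6 none did. Cdk1, the kinase that starts mitosis, was at 279, 194, 193, 261 and 279.9 TPM in control libraries 1 to 5 and at 45.7, 22.2, 68.5, 44.3 and 193 TPM in cytokine libraries 6 to 10. The groups did not overlap, but library 10, at 192.7 TPM, lay just under the lowest control, at 193.2 TPM, and the other cytokine tumours were far below it. Cdk1 fell from 242 ± 44.2 to 74.7 ± 67.99 TPM, which is -2.04 ± 0.46 on the log2 scale (limma adjusted p = 0.0211, called in 5 of 10 fits with 1 library left out). Cdk1 works with small subunits that help it find its substrates, encoded by Cks2 and Cks1b. Cks2 was at 48.3, 47.7, 40.2, 34.2 and 29.7 TPM in control libraries 1 to 5 and at 7.59, 1.05, 3.58, 7.89 and 24.04 TPM in cytokine libraries 6 to 10. Every control tumour was above every cytokine tumour, and library 7 was the lowest. Cks2 fell from 40.02 ± 8.20 to 8.83 ± 8.97 TPM, which is -2.51 ± 0.54 on the log2 scale (limma adjusted p = 0.0188, called in 8 of 10 fits with 1 library left out). Cks1b, its close paralog, fell from 56.2 ± 10.1 to 18.6 ± 12.8 TPM, also without overlap; paralogs this alike could share reads.

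The cyclins that activate Cdk1 did not all pass. Ccna2, which encodes cyclin A2, active from S phase to early mitosis, was at 112, 229, 129, 200.1 and 158 TPM in control libraries 1 to 5 and at 30.9, 21.6, 40.2, 44.4 and 186 TPM in cytokine libraries 6 to 10. Library 10 lay among the controls and the other 4 cytokine tumours far below them. Ccna2 fell from 166 ± 48.5 to 64.7 ± 68.5 TPM, which is -1.75 ± 0.49 on the log2 scale (limma adjusted p = 0.0432, called in 1 of 10 fits with 1 library left out). Ccnb2 fell from 72.3 ± 3.54 to 24.6 ± 16.8 TPM with no overlap. Ccnb1, which encodes the main mitotic cyclin, was at 24.9, 30.9, 18.6, 28.7 and 11.5 TPM in control libraries 1 to 5 and at 10.8, 1.35, 3.12, 7.09 and 21.3 TPM in cytokine libraries 6 to 10. Control library 5 was close to cytokine library 6, and library 10 was within the control range. Its log2 change of -1.64 ± 0.55 did not pass (limma adjusted p = 0.0768; 0.012 without library 10).

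Of the other genes of mitotic entry, 5 of 6 fell. Plk1, the kinase that matures centrosomes and helps to activate Cdk1, fell from 66.5 ± 8.004 to 22.1 ± 20.4 TPM. Foxm1, the transcription factor that switches on many late cell cycle genes, fell from 136 ± 25.2 to 51.8 ± 47.6 TPM. Cdc25b and Cdc25c, phosphatases that remove the brake from Cdk1, had log2 changes of -1.18 ± 0.32 and -1.46 ± 0.38, and Ccnf, which encodes a cyclin that directs ubiquitin ligase to its targets, had -1.29 ± 0.31. Aurka, a kinase of the spindle poles, was at 38.8, 48.3, 47.7, 42.95 and 34.7 TPM in control libraries 1 to 5 and at 32.0, 7.14, 17.1, 13.5 and 33.7 TPM in cytokine libraries 6 to 10. The groups did not overlap, but libraries 6 and 10 lay close to the lowest control, and the change of -1.19 ± 0.37 did not pass (limma adjusted p = 0.063; 0.0165 without library 10).

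**Figure D2:**
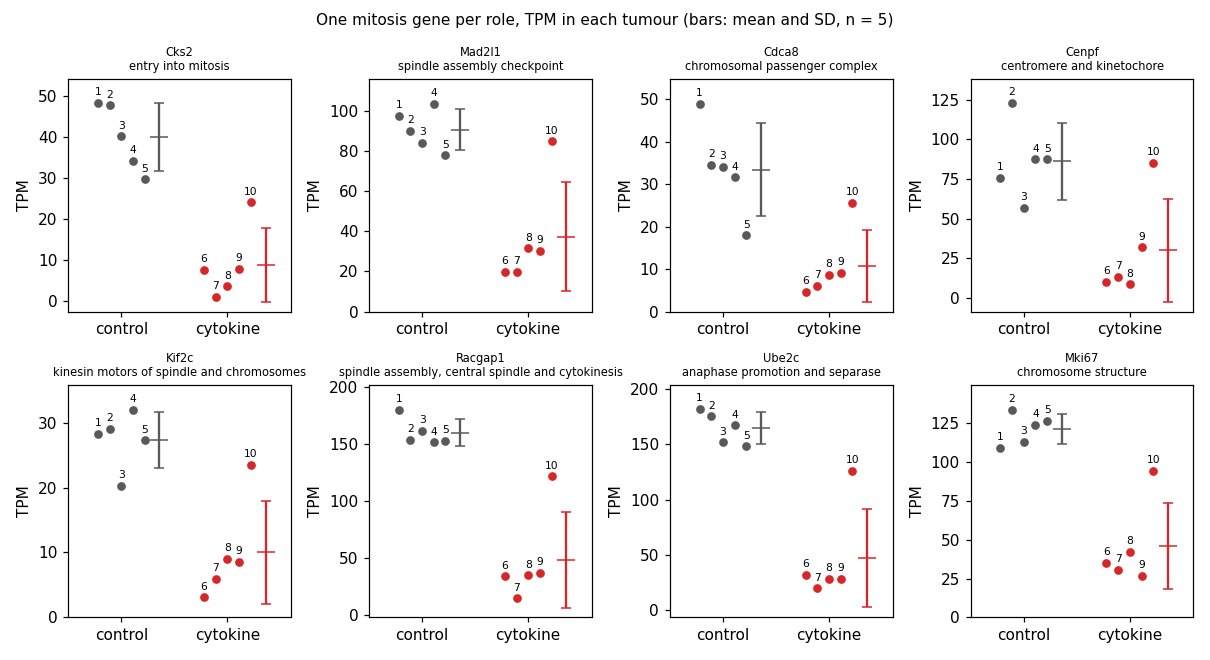
TPM in each tumour (points, numbered by library) for the gene of largest fall in each of the 8 roles, control in grey and cytokine in red, with the mean and SD of each group (n = 5) beside the points. In every panel libraries 6 to 9 sit at the bottom and library 10 sits nearest to or among the controls, as in Ube2c, where it was at 126 TPM against 19.8 to 32.1 TPM in the other cytokine tumours.

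Among the 5 genes of the spindle assembly checkpoint, which delays anaphase until all kinetochores are attached, 3 fell and 2 did not pass (5 without library 10, none without library 6). Mad2l1, the gene of the checkpoint protein that binds Cdc20, was at 97.5, 89.9, 83.9, 103 and 77.8 TPM in control libraries 1 to 5 and at 19.9, 19.7, 31.5, 30.1 and 84.7 TPM in cytokine libraries 6 to 10. Library 10 was the 1 cytokine tumour inside the control range. Mad2l1 fell from 90.5 ± 10.2 to 37.2 ± 27.1 TPM, which is -1.48 ± 0.35 on the log2 scale (limma adjusted p = 0.026, called in 2 of 10 fits with 1 library left out). Bub3, a scaffold of the checkpoint and the most abundant of the 5, fell from 118 ± 29.7 to 54.6 ± 27.5 TPM, and Bub1, a kinase that recruits the others to kinetochores, from 45.8 ± 4.42 to 19.2 ± 12.8 TPM. Both had cytokine library 10 inside the control range. Bub1b, which encodes BubR1, and Ttk, which encodes the kinase Mps1, were at 37.6 ± 9.37 against 16.6 ± 12.1 and 17.98 ± 5.09 against 8.24 ± 5.35 TPM and did not pass (limma adjusted p = 0.0535 and 0.0721; 0.00437 and 0.0119 without library 10).

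All 4 genes of the chromosomal passenger complex fell, and all 4 also fell without library 10, while none did without library 6. This complex of Aurora B kinase with 3 partners corrects wrong attachments at the centromere and then moves to the midzone. Birc5, which encodes survivin, was at 83.96, 92.5, 76.8, 81.03 and 77.3 TPM in control libraries 1 to 5 and at 32.0, 10.1, 25.7, 16.7 and 74.3 TPM in cytokine libraries 6 to 10. The groups did not overlap, though library 10 was just below the lowest control. Birc5 fell from 82.3 ± 6.38 to 31.8 ± 25.2 TPM, which is -1.65 ± 0.42 on the log2 scale (limma adjusted p = 0.0318, called in 2 of 10 fits with 1 library left out). Cdca8, which encodes borealin, was at 48.9, 34.5, 34.1, 31.6 and 17.9 TPM in control libraries 1 to 5 and at 4.66, 6.05, 8.60, 9.20 and 25.6 TPM in cytokine libraries 6 to 10. Here control library 5 was lower than cytokine library 10. Cdca8 fell from 33.4 ± 11 to 10.8 ± 8.47 TPM, which is -1.71 ± 0.41 on the log2 scale (limma adjusted p = 0.0263, called in 2 of 10 fits with 1 library left out). The kinase gene Aurkb fell from 83.6 ± 12.6 to 36.4 ± 24.9 TPM, with control library 1 the lowest of its group at 61.8 TPM. Incenp, the scaffold, had the smallest change of the 4, -0.77 ± 0.22, with no overlap, and after centring on reference genes its change was -0.20, which did not pass.

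Among 7 centromere and kinetochore genes, 6 fell, the same number as without library 10, while 1 fell without library 6. Cenpf, a large protein of the outer kinetochore, was at 75.6, 123, 56.99, 87.5 and 87.3 TPM in control libraries 1 to 5 and at 10.4, 13.5, 8.70, 31.9 and 85.2 TPM in cytokine libraries 6 to 10. Library 10 was within the control range and the 4 others were below it. Cenpf fell from 86.1 ± 24.1 to 29.9 ± 32.2 TPM, which is -1.98 ± 0.53 on the log2 scale (limma adjusted p = 0.0391, called in 1 of 10 fits with 1 library left out). The 4 genes of the Ndc80 complex, which grips microtubules, differed in size of change. Nuf2 fell from 38.3 ± 7.54 to 14 ± 12.1 TPM and Ndc80, at -1.59 ± 0.41 on the log2 scale, changed about as much as Nuf2 did at -1.65 ± 0.40. Spc25, their partner, was at 87.05, 78.7, 67.6, 63.8 and 65.8 TPM in control libraries 1 to 5 and at 36.7, 29.9, 29.8, 30.6 and 50.1 TPM in cytokine libraries 6 to 10. No control overlapped a cytokine tumour, and library 10 was again the highest of its group. Spc25 fell from 72.6 ± 9.95 to 35.5 ± 8.71 TPM, which is -1.03 ± 0.20 on the log2 scale (limma adjusted p = 0.0155, called in 10 of 10 fits with 1 library left out). The call without library 6 was marginal (limma adjusted p = 0.04996). Spc24, the last of the 4, was at 58.9, 67.2, 27.1, 57.2 and 60.7 TPM in control libraries 1 to 5 and at 34.6, 9.03, 47.8, 17.6 and 54.9 TPM in cytokine libraries 6 to 10. Control library 3 was the lowest of its group and below cytokine libraries 6, 8 and 10. Its change of -0.90 ± 0.46 did not pass (limma adjusted p = 0.202; 0.0849 without library 10). Cenpa, the histone variant that marks the centromere, fell from 67.7 ± 10.1 to 26.5 ± 15.1 TPM without overlap, and Cenpe, a kinesin that carries chromosomes to the spindle equator, from 27.3 ± 5.72 to 10.7 ± 6.38 TPM.

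Kinesin motors of the spindle and chromosomes fell in 4 of 7, with a median log2 change of -1.17 (6 fell without library 10, none without library 6). Kif2c, which takes microtubules apart at kinetochores, was at 28.3, 29.04, 20.3, 31.98 and 27.3 TPM in control libraries 1 to 5 and at 3.09, 5.98, 8.98, 8.61 and 23.5 TPM in cytokine libraries 6 to 10. Library 10 was inside the control range. Kif2c fell from 27.4 ± 4.32 to 10.03 ± 7.89 TPM, which is -1.61 ± 0.40 on the log2 scale (limma adjusted p = 0.0308, called in 1 of 10 fits with 1 library left out). Kifc1, which clusters spindle poles, fell from 15.8 ± 5.54 to 5.21 ± 3.07 TPM, and Kif18a, which damps chromosome movement, and the chromokinesin gene Kif4 fell with log2 changes of -1.17 ± 0.30 and -1.38 ± 0.37. Kif15 and Kif11, a pair of motors that push spindle poles apart, were at 105 ± 27.3 against 57.4 ± 36.02 and 4.49 ± 1.88 against 1.98 ± 1.59 TPM and did not pass (limma adjusted p = 0.122 and 0.125; 0.0236 and 0.0301 without library 10). Kif11 had the lowest level of the 55 in the controls.

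Kif22, a chromokinesin that pushes chromosomes away from the poles, was the 1 gene whose mean TPM was higher in cytokine tumours. Kif22 was at 32.96, 50.1, 27.9, 41.9 and 57.4 TPM in control libraries 1 to 5 and at 23.9, 184, 8.75, 9.26 and 36.5 TPM in cytokine libraries 6 to 10. Library 7 was above every other tumour, while libraries 6, 8 and 9 were below every control. The means were 42.05 ± 12.1 against 52.6 ± 74.6 TPM and the log2 change was -0.57 ± 0.69, in the opposite direction to the means, and it did not pass (limma adjusted p = 0.583). Without library 7 the change was -1.25 (limma adjusted p = 0.0906).

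Genes of spindle assembly, the central spindle and cytokinesis fell in 8 of 10 (all 10 without library 10, none without library 6). Racgap1, part of the centralspindlin complex that sets the division plane, was at 180.0, 154, 162, 151 and 153 TPM in control libraries 1 to 5 and at 34.2, 14.9, 34.95, 37.1 and 122 TPM in cytokine libraries 6 to 10. The groups did not overlap, and library 10 lay between them and the other cytokine tumours. Racgap1 fell from 159.8 ± 12.02 to 48.5 ± 41.8 TPM, which is -2.03 ± 0.42 on the log2 scale (limma adjusted p = 0.0172, called in 9 of 10 fits with 1 library left out). Its centralspindlin partner, the kinesin gene Kif23, fell from 141 ± 19.9 to 50.4 ± 34.6 TPM without overlap. Tpx2, which activates Aurora A and seeds spindle microtubules, was at 154, 85.4, 101, 94.2 and 67.5 TPM in control libraries 1 to 5 and at 30.4, 16.8, 25.3, 17.7 and 68.5 TPM in cytokine libraries 6 to 10. Library 10 was just above control library 5. Tpx2 fell from 100.4 ± 32.3 to 31.7 ± 21.3 TPM, which is -1.77 ± 0.37 on the log2 scale (limma adjusted p = 0.0172, called in 9 of 10 fits with 1 library left out). Prc1, which bundles the microtubules between separating chromosomes, fell from 148 ± 18.5 to 62.5 ± 40.4 TPM. Kif20a and Kif20b, kinesins of late mitosis, fell with log2 changes of -1.49 ± 0.36 and -1.41 ± 0.35, and the spindle protein genes Hmmr and Nusap1 with -1.33 ± 0.31 and -1.15 ± 0.30. Ect2, which switches on RhoA at the division site, and Anln, which ties the contractile ring together, were at 87.01 ± 24.4 against 38.3 ± 31.9 and 59.98 ± 6.47 against 27.6 ± 23.6 TPM and did not pass (limma adjusted p = 0.0775 and 0.0695; 0.00827 and 0.00514 without library 10). In both, library 10 was within the control range and above the control mean.

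The genes of anaphase promotion held both the largest and the smallest changes outside Cks2. The anaphase-promoting complex is a ubiquitin ligase that destroys cyclin B and securin, which frees separase to cut the cohesin between sister chromatids. Of 5 genes here, 3 fell (4 without library 10, none without library 6). Ube2c, which loads the first ubiquitin, was at 182, 175, 152, 167 and 148 TPM in control libraries 1 to 5 and at 32.1, 19.8, 28.3, 28.5 and 126 TPM in cytokine libraries 6 to 10. No cytokine tumour reached the control range, and libraries 6 to 9 were far below library 10. Ube2c fell from 165 ± 14.6 to 46.9 ± 44.3 TPM, which is -2.13 ± 0.41 on the log2 scale (limma adjusted p = 0.0146, called in 9 of 10 fits with 1 library left out). Cdc20, the activator of the complex that the checkpoint inhibits, was at 50.3, 38.1, 27.8, 46.97 and 38.9 TPM in control libraries 1 to 5 and at 3.77, 3.36, 11.1, 8.95 and 34.1 TPM in cytokine libraries 6 to 10. Library 10 was within the control range. Cdc20 fell from 40.4 ± 8.77 to 12.3 ± 12.7 TPM, which is -2.06 ± 0.50 on the log2 scale (limma adjusted p = 0.0276, called in 2 of 10 fits with 1 library left out). Espl1, which encodes separase, fell from 18.8 ± 3.50 to 8.31 ± 4.77 TPM.

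Securin and the second ubiquitin enzyme did not pass, and in both library 10 was not the highest cytokine tumour. Pttg1, which encodes securin, the inhibitor of separase, was at 99.0, 69.9, 63.5, 122 and 72.1 TPM in control libraries 1 to 5 and at 45.8, 42.2, 86.02, 86.7 and 58.8 TPM in cytokine libraries 6 to 10. The groups overlapped widely, and here libraries 8 and 9 lay among the controls while library 10 was below them. Its change of -0.43 ± 0.27 did not pass (limma adjusted p = 0.295), and after centring on reference genes it was 0.14, the 1 change of direction among the 55. Ube2s, which extends the ubiquitin chain, was at 29.4, 34.6, 31.8, 47.4 and 26.5 TPM in control libraries 1 to 5 and at 29.8, 2.63, 11.9, 10.9 and 17.9 TPM in cytokine libraries 6 to 10. Library 6 was within the control range, and library 10 was below every control. Its change of -1.44 ± 0.47 did not pass (limma adjusted p = 0.0734; 0.042 without library 10).

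Genes of chromosome structure had the highest median control level of the 8 roles, and 2 of 5 fell (all 5 without library 10, none without library 6). Mki67, the gene of Ki-67, the coat of mitotic chromosomes used as a proliferation marker, was at 109, 134, 113, 124 and 126 TPM in control libraries 1 to 5 and at 35.05, 30.8, 42.05, 26.9 and 94.5 TPM in cytokine libraries 6 to 10. The groups did not overlap. Mki67 fell from 121 ± 9.98 to 45.9 ± 27.8 TPM, which is -1.54 ± 0.30 on the log2 scale (limma adjusted p = 0.0155, called in 9 of 10 fits with 1 library left out). Ncaph, a subunit of condensin I, fell from 44.3 ± 8.86 to 18.3 ± 10.3 TPM. Smc4, a core subunit of both condensins, was at 283, 319, 168, 252 and 280.0 TPM in control libraries 1 to 5 and at 125, 67.3, 97.5, 115 and 344 TPM in cytokine libraries 6 to 10. Library 10 was the highest of all 10 tumours, and the other cytokine tumours were below every control. Its change of -1.0 ± 0.38 did not pass (limma adjusted p = 0.106; 0.00422 without library 10). Top2a, the topoisomerase that untangles sister chromatids, was at 221, 228, 197, 165 and 160.2 TPM in control libraries 1 to 5 and at 53.3, 35.9, 102, 73.5 and 233 TPM in cytokine libraries 6 to 10. The pattern was like that of Smc4, with library 10 above every control, and the change of -1.24 ± 0.41 did not pass (limma adjusted p = 0.0757; 0.0034 without library 10). Smc2, the partner of Smc4 in condensin, was at 104 ± 25.8 against 56.6 ± 19.6 TPM, with a limma adjusted p = 0.0522 (0.0103 without library 10).

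**Figure D3:**
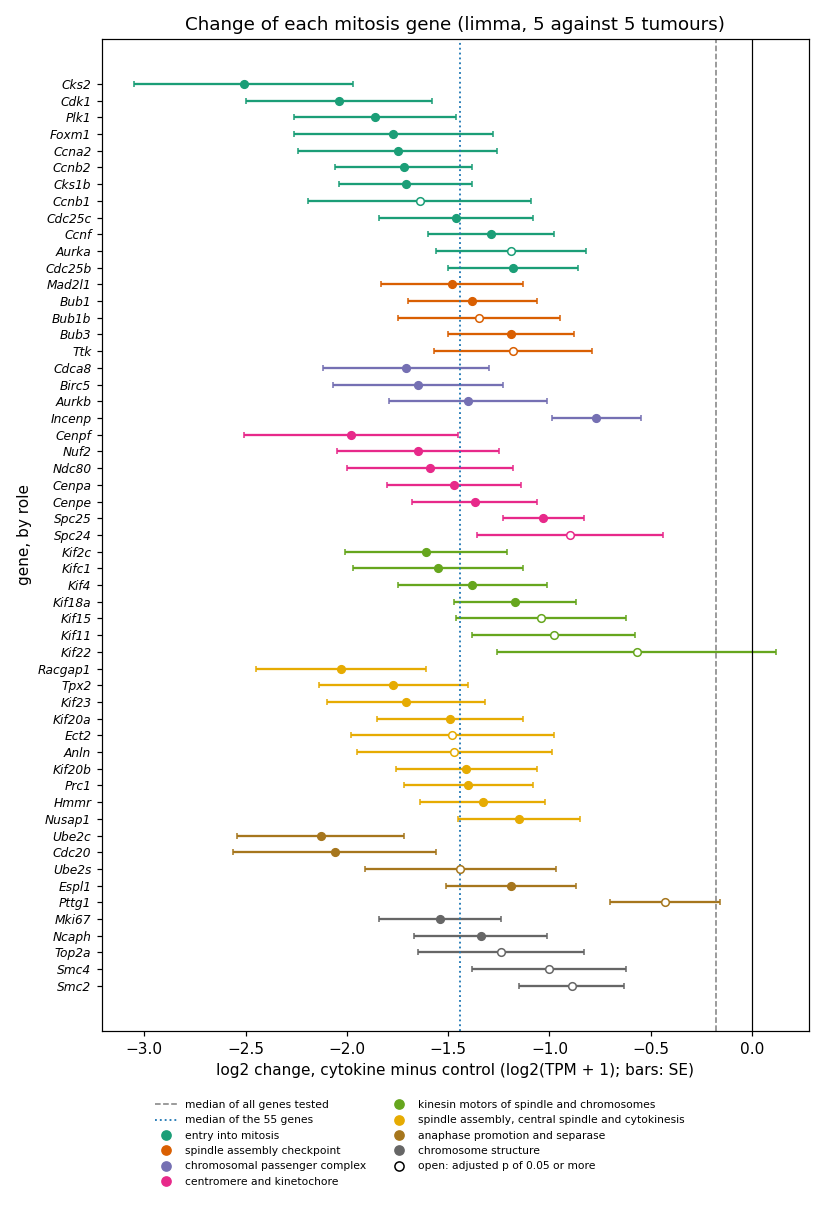
Log2 change of each of the 55 genes (cytokine minus control, on log2(TPM + 1); bars are the SE from limma) by role, filled where the adjusted p was under 0.05. All 55 points lie below 0, from -2.51 in Cks2 to -0.43 in Pttg1; the dashed line is the median of all genes tested, -0.18, and the dotted line that of the 55 genes, -1.44. After centring on reference genes Pttg1 lay at 0.14.

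Most single calls changed when a library was left out. Of the 40 genes that fell, 1 passed in all 10 fits with 1 library left out, 9 lost the call in 1 to 3 of them, 6 in 4 to 6 and 24 in 7 or more. Ube2c, Racgap1, Tpx2, Mki67, Ccnb2 and Cks1b each lost it in 1 fit, and Cks2 and Plk1 in 2.

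The mean level of general transcripts moved with the mitotic genes. The mean log2(TPM + 1) of 15 reference genes, such as Gapdh and Hprt, was 7.93 to 8.08 in controls. It was 6.78 to 7.67 in libraries 6 to 9 and 8.03 in library 10. None of the 15 was called by limma, and their log2 changes ran from -1.62 to 0.59. In 13 of the 15 the change was below 0, against 60.3% of all genes tested. The mean of 74 ribosomal protein genes was 6.36 to 6.67 in controls, 5.02 to 6.14 in libraries 6 to 9 and 6.43 in library 10. When every library was centred on its reference genes, 19 of the 55 genes fell (1.13% of all genes tested were lower by that fit), 54 had a log2 change below 0, and the median change was -0.87 beside 0.39 over all genes tested. Cks2, Cdk1, Ube2c, Racgap1, Cdc20 and Mki67 were among the 19, with log2 changes of -1.94, -1.47, -1.56, -1.46, -1.49 and -0.97. Ccna2, Spc25 and Cenpf, at -1.18, -0.46 and -1.41, no longer passed.

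Other signs of library make-up also moved with the groups. Mitochondrially encoded genes took 16.2% to 27.9% of TPM in controls, 4.44% to 13.1% in libraries 6 to 9 and 19.2% in library 10 (2-sided exact permutation p = 0.0159 for all 5 against 5). The mean of 10 genes of tissue handling, which respond to stress during dissection, was 3.50 to 3.82 on the log2(TPM + 1) scale in controls and 3.97 to 4.50 in cytokine tumours, 4.08 in library 10, with no overlap (2-sided exact permutation p = 0.00794, the smallest that 5 against 5 can give). Of these 10 genes, limma called 2 higher and 8 did not pass. Their median log2 change was 0.3, and it was below 0 in 2 of them. The part of these signs of library make-up in the mitotic values was not tested.

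Immune marker levels were highest in the tumours in which mitotic genes were low. The summed TPM of 14 T cell genes was 3.83 to 58.4 in controls and 77.4 to 4077 in cytokine tumours, and that of 14 macrophage and monocyte genes was 159 to 736 and 952 to 16950. Of the T cell genes 12 could be tested and 11 rose, and of the macrophage genes 11 of 14 rose. In control library 5, 12 of the 14 T cell genes were listed at 0. Their part in the mitotic values, which are shares of all RNA in a library, was not tested. All 14 melanocyte lineage genes had a log2 change below 0, with a median of -1.76, and none was called by limma (0 at an unadjusted p under 0.05). Their mean was 7.20, 1.64, 7.16 and 8.66 in libraries 6 to 9 and 8.97 in library 10, against 6.23 in control library 1 and 8.80 to 9.04 in the other controls. Library 7 was lowest and control library 2 highest in both the melanocyte and the mitotic means. Libraries 6, 8 and 9 each lay below 4 of the 5 controls in melanocyte genes and above control library 1. Library 9, at 8.66 the nearest of them to those 4 controls, had 54 mitotic genes below every control. Control library 1, lowest of its group in melanocyte genes, had a mitotic mean of 5.73, within the 5.58 to 5.85 of the controls. The part of the melanocyte genes in the mitotic values was not tested.

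**Figure D4:**
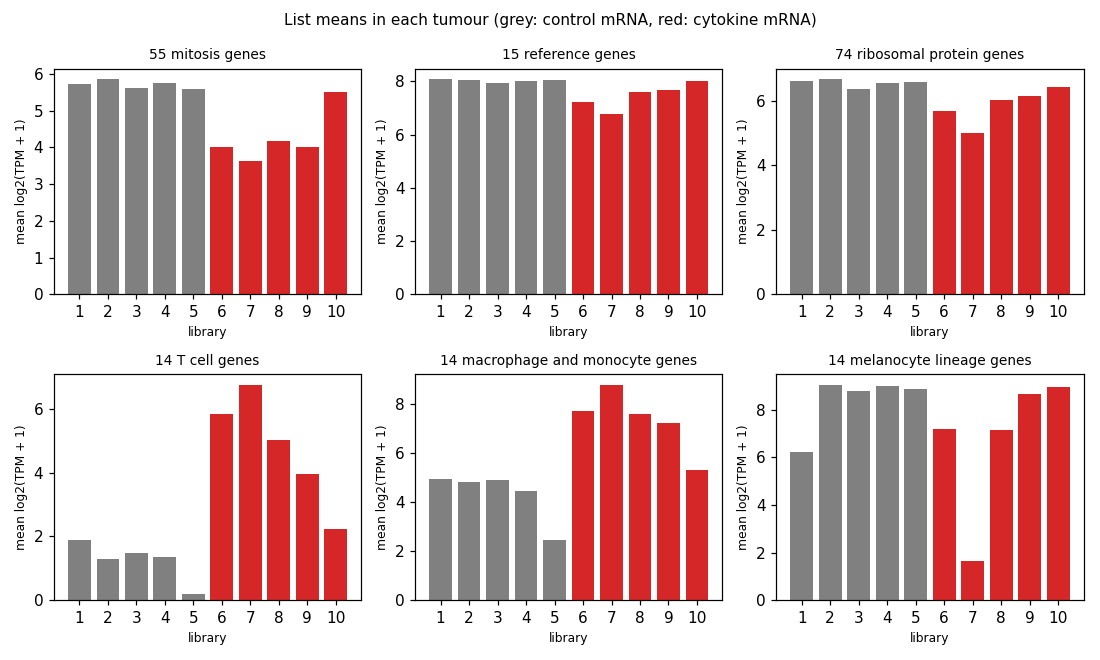
Mean log2(TPM + 1) per tumour (bars, by library; grey control, red cytokine) of the 55 mitosis genes, 15 reference genes, 74 ribosomal protein genes and 14 genes each of T cells, macrophages and monocytes, and the melanocyte lineage. The mitosis genes were at 5.58 to 5.85 in controls, 3.64 to 4.17 in libraries 6 to 9 and 5.51 in library 10; the melanocyte mean was lowest in library 7, at 1.64.

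Other genes of mitosis, 105 from lists of related complexes, fell in part. By the same limma rule 36 fell, none rose and 69 did not pass (3.02% of all genes tested were lower); 2 were higher at an unadjusted p under 0.05. The log2 change was below 0 in 90 of the 105, against 60.3% of all genes tested, and its median was -0.96. Without library 10, 65 fell and 1 rose, and without library 6, 1 fell (Knl1). Of all genes tested, 12.8% and 0.114% were lower in those fits. The difference between these lists and the 55 genes was not tested.

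Falls were found in spindle, kinetochore and cohesion genes. Of 20 other spindle and cytokinesis genes, 14 fell, among them Kif18b, a kinesin of microtubule ends, from 36.4 ± 10.1 to 9.18 ± 6.59 TPM, and Troap, a spindle protein gene, from 25.7 ± 1.98 to 8.75 ± 8.51 TPM. Of 31 other centromere and kinetochore genes, 13 fell. The largest falls of these 13 were in Zwilch and Kntc1, both parts of the complex that brings dynein to kinetochores, from 122 ± 41.02 to 37.5 ± 41.1 and 50.7 ± 15.7 to 14.8 ± 15.3 TPM. Of 17 genes of cohesin, condensin and shugoshin, 6 fell, including Sgol1 and Sgol2a, which protect centromeric cohesin. Sgol1 went from 46.5 ± 10.4 to 11.2 ± 10.2 TPM with no overlap, and Sgol2a from 26.6 ± 3.03 to 9.26 ± 6.14 TPM. With 1 library left out, Zwilch, Troap and Kntc1 lost the call in 9, 8 and 7 of 10 fits. Sgol2a lost it in 4, and Kif18b and Sgol1 in 1 each.

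Core subunits of the anaphase-promoting complex did not pass the test. Of 13 such subunits, which are present through much of the cell cycle, none was called by limma (2 at an unadjusted p under 0.05). Their log2 changes ran from -0.75 to 0.33, with a median of -0.27. Without library 10, 2 of the 13 fell, and 12.8% of all genes tested were lower in that fit. The late activator of the complex, Fzr1, fell from 33.4 ± 7.24 to 16.9 ± 5.86 TPM. Its inhibitor Fbxo5, also known as Emi1, fell from 38.1 ± 10.02 to 16.5 ± 14.6 TPM. Both genes lost the call in 9 of 10 fits with 1 library left out. Of 10 other kinases and phosphatases of mitotic entry, 1 fell, Pbk, a mitotic kinase gene, from 30.5 ± 6.37 to 9.21 ± 9.77 TPM, a call that held in 1 of 10 leave-one-out fits. Of these 10 genes, 7 were at an unadjusted p under 0.05. Without library 10, 6 of the 10 fell and 1 rose, where 12.8% of all genes tested were lower. None of 12 genes of the DREAM and B-Myb complexes was called by limma (5 at an unadjusted p under 0.05), and their median log2 change was -0.51. Without library 10, 4 of these 12 fell, beside the same 12.8% of all genes tested. Beside these unadjusted counts, 3813 of all 12497 genes tested were at an unadjusted p under 0.05 by limma, in either direction.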

How the data were processed

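Polyadenylated RNA of 10 tumours was sequenced; per the labels' protocols, total RNA was extracted with DNase treatment and stranded libraries were made with NuGEN chemistry. The authors deposited TPM per gene symbol. The submitters' processing notes name STAR and the human build GRCh38 although the samples are mouse; for counting, annotation and the TPM formula the method is not given in the sources used here. No counts were used, so depth is unknown and no counting interval is given. Here limma 3.58.1 in R 4.3.3 (lmFit and eBayes with a trend) compared log2(TPM + 1) between the groups in genes reaching a TPM of 1 in 5 or more libraries, with Benjamini-Hochberg adjustment over all genes tested and calls at an adjusted p under 0.05. The fit was tested on simulated data. A fold change on this scale understates that of low genes. The 55 genes and all lists were chosen with earlier results of these data known. By rule, each role's 2 most abundant genes, its 2 largest called changes, all its uncalled genes and the 2 largest called changes of each related list are described; the other members are given so that each of the 55 is accounted for, and Knl1 was named after its values were seen. Alternatives were other pseudocounts, filters, scalings, variance models, thresholds, a rank test and left-out libraries. Promoter sequences came from RefSeq (GRCm38.p6); protein sequences were not used here.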

Additional observations from a re-analysis of the deposited data

Results flagged for a closer look

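In groups of 5, a value was singled out when its gap to the nearest other value, divided by the range of the group, was above Dixon's critical value of 0.71, which chance passes in about 1 of 20 groups. Over the 55 genes and both groups, 110 such checks were made, and library 10 was singled out as the highest cytokine tumour in 26 genes. In genes of mitotic entry library 10 was at 192.7 TPM in Cdk1, 53.55 TPM in Ccnb2, 186.3 TPM in Ccna2, 24.18 TPM in Ccnf, 28.55 TPM in Cdc25b and 16.67 TPM in Cdc25c. It was at 41.49 TPM in Cks1b, 58.3 TPM in Plk1 and 133.9 TPM in Foxm1. In checkpoint, passenger and kinetochore genes it was at 41.84 TPM in Bub1, 84.72 TPM in Mad2l1, 25.6 TPM in Cdca8, 22.1 TPM in Cenpe, 14.12 TPM in Ndc80 and 35.22 TPM in Nuf2. In kinesin and spindle genes it was at 23.5 TPM in Kif2c, 31.67 TPM in Kif20a, 17.6 TPM in Kif20b, 133.5 TPM in Prc1, 68.49 TPM in Tpx2, 23.95 TPM in Nusap1 and 121.6 TPM in Racgap1. In genes of anaphase and chromosome structure it was at 34.13 TPM in Cdc20, 125.8 TPM in Ube2c, 344.3 TPM in Smc4 and 94.54 TPM in Mki67. Among the related genes described by rule, it stood apart at 42.57 TPM in Fbxo5 and 41.85 TPM in Kntc1.

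In 5 of the 55 genes another library stood apart. Kif22 was at 184.4 TPM in library 7, the highest cytokine tumour. Control library 1 was the lowest of its group in Aurkb, at 61.81 TPM, and in Cdc25b, at 19.15 TPM. Control library 3 was the lowest of its group in Spc24, at 27.11 TPM, and the highest in Kif4, at 25.66 TPM.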

How the results depend on the processing

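No paired analysis was possible because the library numbers are not shared between the groups. Of the 55 genes, 40 fell and none rose; of the 105 related genes, 36 fell and none rose. Leaving out 1 library at a time gave 1 to 52 lower of the 55, and 1 to 65 lower and 0 to 1 higher of the related genes. Without a filter on low values, 23 and 15 fell. Centred on reference genes, 19 and 16 fell, 1 related gene rose and Pttg1 changed sign, to 0.14. Library quality weights gave 53 and 59 lower. For the weighted fit and the fit without a filter, the share of all genes tested that was lower is not given here. The exact rank test called 0 of both lists (46 of the 55 at an unadjusted p under 0.05, smallest adjusted p 0.08602). It could call no gene in these data, so the 0 says nothing about the lists. With 5 against 5 the smallest exact p is 0.00794, and after adjustment over all genes tested that p was 0.08602. An adjusted p under 0.01 left 0 and 0 in limma, as did leaving out libraries 6 and 7 together, where 49 of the 55 were at an unadjusted p under 0.05. For the unadjusted counts of that fit and of the rank test, the share of all genes tested is not given here. Other pseudocounts, the filter at a TPM of 5 and the other scalings gave 37 to 43 lower of the 55. The median of all genes tested lay from -0.31 to 0.39 (log2) over the scalings. The causes of these shifts were not tested. The comparison of protein motifs was not run. TPM carry no depth, so counting error is not known.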
